A study of Mus musculus with 6 samples.

Results

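Basic helix-loop-helix (bHLH) factors of the heart were followed here, led by Tcf23, and described in sham and tail-suspended mouse hearts. The group has 10 genes, namely Tcf23, Tcf21, Tcf15, Hand1, Hand2, Hey1, Hey2, Heyl, Hes1 and Id1, out of 36163 names on the array. They were found by the gene name given to each probe in the scanner output, and each had 1 probe with 1 spot. The group was drawn up with results of the same 6 arrays in view, in particular the difference between tail-suspension and sham. Values of that difference are therefore given for these genes as a description, with no test.

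Both groups were male C57BL/6 mice, and cardiac muscle was taken from 3 animals in each. Tail-suspension lifts the hindlimbs off the floor and is used to mimic microgravity on the ground. Suspended mice hung for 28 days, while sham mice were kept in the same room and fed alike without suspension. In the labels the mice were 10 weeks old at the start, whereas their stated age was 11 weeks. These ages and the length of suspension cannot all hold, and the paper gives yet another age. No transgene or drug was part of either group.

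A bHLH protein pairs with a partner through its helix-loop-helix and binds short DNA sites, called E-boxes, through its basic region. Factors of the tissue class, such as Hand2 and Tcf21, pair with the widely expressed E proteins. Id proteins lack the basic region and hold E proteins away from DNA, and the product of Tcf23 is known for an inhibitory activity of the same kind. Hes and Hey proteins are repressors that the Notch receptors switch on in vessels, valves and the developing heart, whereas BMP signals switch on the Id genes.

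RNA of each heart was labelled in 1 colour and hybridised to an Agilent mouse array, and a processed intensity was read for every spot. The log2 of this intensity relative to the 75th percentile of the array is called the level. The share of probes well above background lay between 50.9% and 53.4% per array, and no spot was saturated. All 6 arrays lay on 1 slide. The sham arrays and tail-suspension replicate 1 were in one row of it, and tail-suspension replicates 2 and 3 were in the other. All 10 cardiomyocyte marker genes were well above background on every array. Their summed level on the linear scale, in units of the 75th percentile, was 5740 to 6170 in sham and 5260 to 5380 in tail-suspension. The 75th percentile, by which these sums are divided, was 302 to 322 in sham and 341 to 376 in tail-suspension. In whole tissue, fewer cells of a type, less RNA per cell and a higher divisor cannot be told apart. Across all 28032 tested probes, 20.4% differed between the groups at an adjusted p of 0.05 by limma with Benjamini-Hochberg adjustment. Of all tested probes, 10.8% were past this threshold and higher in tail-suspension, and 9.57% were past it and lower. Of the 10 cardiomyocyte markers, 1 (Actc1) was past it, with a log2 difference of -0.33 (limma adjusted p = 0.0364). Dimmer probes of Myh6 and Atp2a2 differed by -1.47 and -0.64 (limma adjusted p = 0.00957 and 0.0369).

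Among the 10 genes, Tcf23 differed most. The sham arrays read 91.1, 82.5 and 79.6 as processed intensity, and the tail-suspension arrays read 844, 982 and 923. Relative to the 75th percentile, these were levels of -1.90 ± 0.07 for sham and 1.33 ± 0.05 for tail-suspended mouse hearts (mean ± SD, n = 3 each). The difference was 3.23 on the log2 scale (standard error 0.08), or 9.38-fold. Each group was tight and the groups lay far apart, with all 3 tail-suspension arrays between 3.20 and 3.28 above the sham mean. The probe was well above background on all 6 arrays, so that the sham level was measured and is not a bound. It covers chr5:31279066-31279125 (mm9) on the plus strand. The scanner put the error of this spot at 10% of the signal or slightly more.

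Tcf21, of the same class as Tcf23, marks epicardium and cardiac fibroblasts. Its level was -0.54, -0.18 and -0.20 in sham and -0.19, -0.42 and -0.40 in tail-suspension. The groups overlapped, and the difference was -0.03 (standard error 0.13). Among 9 fibroblast markers, Col3a1 fell by 1.88 (log2; standard error 0.36; limma adjusted p = 0.0177) and the other 8 were not past the threshold. After adjustment, 0 of the 9 passed by the methods' t-test. The summed fibroblast level was 287 to 306 in sham and 284 to 366 in tail-suspension, most of it from Dcn. Dcn differed by 0.34 (limma adjusted p = 0.0548), whereas the median difference of the 9 markers was -0.19, with 3 of them higher by sign.

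The pair is shown by sequence because one member had the widest difference of the group and the other one of the smallest. The 250 bases before the annotated start of each gene are given from RefSeq, build GRCm38.p6, from 5′ to 3′ on the strand of the gene. Capitals mark each E-box, searched as CANNTG, which reads the same on both strands. The first stretch is chr5:30968427-30968676 on the plus strand and the second chr10:22820144-22820393 on the minus strand.
Tcf23: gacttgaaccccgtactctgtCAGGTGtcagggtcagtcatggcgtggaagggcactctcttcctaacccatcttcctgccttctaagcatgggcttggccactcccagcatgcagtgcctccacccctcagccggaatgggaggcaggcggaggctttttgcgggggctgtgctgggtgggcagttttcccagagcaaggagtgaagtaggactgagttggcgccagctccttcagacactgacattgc
Tcf21: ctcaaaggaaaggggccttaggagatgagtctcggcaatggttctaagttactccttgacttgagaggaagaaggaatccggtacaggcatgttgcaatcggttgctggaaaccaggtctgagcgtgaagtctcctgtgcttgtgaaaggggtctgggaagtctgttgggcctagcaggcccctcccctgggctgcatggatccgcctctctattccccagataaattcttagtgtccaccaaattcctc
One E-box lay in the Tcf23 stretch and none in that of Tcf21. The letters CANNTG occur in 66.2% of 32851 windows of the same length before annotated starts. The same table held Hand2, with 2 such matches, and Hey2, with 1. The core of the Rbpj site, TGGGAA on either strand, occurred once before Tcf23, Tcf21 and Hey2 and not before Hand2, against 21.6% of all windows. Its letters can overlap an E-box at their ends, but shared no base with one in these 3 stretches. The N-box CACNAG, a site known for Hes proteins, was present once before Tcf21 and absent before the other 3, against 36.7% of all windows. These are matches of letters only. The table matched 4 of the 10 genes, and Tcf15, Hand1, Hey1, Heyl, Hes1 and Id1 were not analysed here in this respect.

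Tcf15, a tissue class factor known from the paraxial mesoderm and from endothelium of the adult heart, was lower in tail-suspension. Its level was 4.03, 3.33 and 3.25 in sham and 2.58, 2.86 and 2.79 in tail-suspended mouse hearts. No tail-suspension array reached the lowest sham array, although sham replicate 1 stood well above the other sham arrays. The difference was -0.79 (standard error 0.22), and -0.54 without sham replicate 1. Of 9 endothelial marker genes, Kdr, Tie1, Emcn and Cldn5 fell and Flt1 rose, with adjusted p between 0.0159 and 0.0482 by limma. Pecam1, Cdh5, Tek and Esam were not past the threshold. That made 5 of 9, against 20.4% of all tested probes, but only 1 of the 9 passed by the methods' t-test. Dimmer probes of Kdr and Flt1 differed by -0.25 and 0.42 (limma adjusted p = 0.0739 and 0.356). The summed endothelial level was 93.9 to 97.9 in sham and 90.4 to 100 in tail-suspension, with the largest part from Flt1. The part of these cells in the value of Tcf15 was not tested.

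Hand1 and Hand2 shape the ventricles of the embryo. Hand1 was not well above background on any of the 6 arrays, with processed intensities between 2.92 and 4.08, and has no measured difference. Hand2 was at 1.36, 1.94 and 1.99 in sham and 1.70, 2.37 and 2.26 in tail-suspension. Its difference was 0.35 (standard error 0.24), within overlapping groups. Replicate 1 of tail-suspension, which shared the row of the slide with the sham arrays, lay 0.06 below the sham mean, and the pair in the other row lay 0.61 and 0.49 above it. Row and animal cannot be told apart for this pair.

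The Notch-driven repressors did not move one way. Hey1 was at 1.69, 1.63 and 1.68 in sham and 2.09, 2.38 and 2.21 in tail-suspension, a difference of 0.56 (standard error 0.10). Sham values of Hey1 spanned only 0.05, and every tail-suspension array lay above them. Heyl, the paralogue found mainly in smooth muscle and mural cells, went the other way. Its level was 1.71, 1.97 and 1.86 in sham and 0.65, 0.90 and 0.63 in tail-suspended mouse hearts, a difference of -1.12 (standard error 0.12). All tail-suspension arrays lay 0.94 to 1.21 below the sham mean of Heyl. Of 8 mural markers, Kcnj8 fell by 0.56 (standard error 0.12, limma adjusted p = 0.0234) and the other 7 were not past the threshold. The summed mural level was 85.2 to 99.7 in sham and 87 to 105 in tail-suspension, and the part of these cells in the value of Heyl was not tested.

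Hey2, which patterns ventricular muscle, was a dim probe at -2.75, -2.65 and -2.84 in sham and -2.70, -2.08 and -2.27 in tail-suspension. As with Hand2, replicate 1 lay close to the sham mean, 0.04 above it, and replicates 2 and 3 were 0.67 and 0.48 above. The difference over all arrays was 0.40 (standard error 0.17). Hes1, the repressor that many cell types use downstream of Notch, was at -1.86, -2.13 and -2.22 in sham and -2.39, -1.95 and -2.19 in tail-suspension. These ranges overlapped, and the difference was -0.11 (standard error 0.15).

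Id1, the inhibitor of E proteins among the 10, was higher in tail-suspension. Sham levels were 3.09, 3.01 and 3.45, and tail-suspension levels were 3.81, 3.73 and 3.83. No array of one group reached the other, and the tail-suspension arrays spanned 0.11 against 0.44 in sham. The difference was 0.61 (standard error 0.13), or 1.52-fold.

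**Figure D1:**
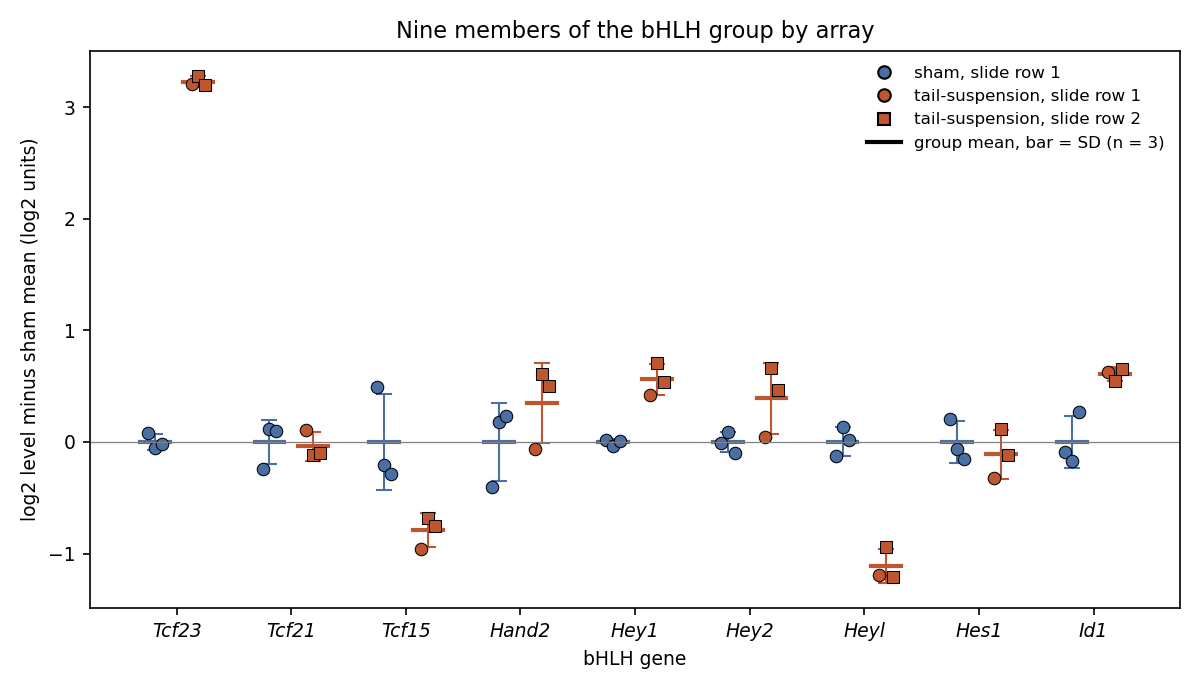
Level of each of 9 bHLH genes on each array, as the log2 difference from the mean of the 3 sham arrays. Points are arrays, circles and squares are the rows of the slide, lines are group means and bars are SD (n = 3). Hand1 is left out because it was not well above background. Tcf23 lies 3.20 to 3.28 above the sham mean, and for Hand2 and Hey2 the circle of tail-suspension lies among the sham points.

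Over the group, 9 of 10 genes had a tested probe, and all 9 were well above background on every array. Tcf23, Hey1 and Id1 were past the threshold of the fit and higher, Tcf15 and Heyl were past it and lower, against 20.4% of all tested probes in either direction. The same 5 genes had no overlap between the groups, against 44.0% of all tested probes. Nothing is read from these shares, since the group was chosen on this difference. The median difference was 0.35 over the 9 genes and 0 over all tested probes, and the median absolute difference was 0.56 and 0.24. Under the other settings tried, between 2 and 5 of the 9 genes were past the threshold, and Hey2 was among them without tail-suspension replicate 1 (difference 0.57). Tcf23 and Heyl stayed past it in each fit. Tcf15 was not past it in any fit that left out an array or added a block. It was also not past it without the filter on dim probes or by the methods' t-test. Among the fits without an array, Id1 was not past it without sham replicate 1 or 2 or tail-suspension replicate 1 or 3, and Hey1 without sham replicate 2 or tail-suspension replicate 3. Neither was past it with slide row as a block or without the filter on dim probes, nor was Id1 by the methods' t-test. Within the row of the slide that held both groups, where 1 tail-suspension array stood against 3 sham arrays, the difference was 3.21 for Tcf23, -0.95 for Tcf15, 0.43 for Hey1, -1.20 for Heyl and 0.63 for Id1.

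**Figure D2:**
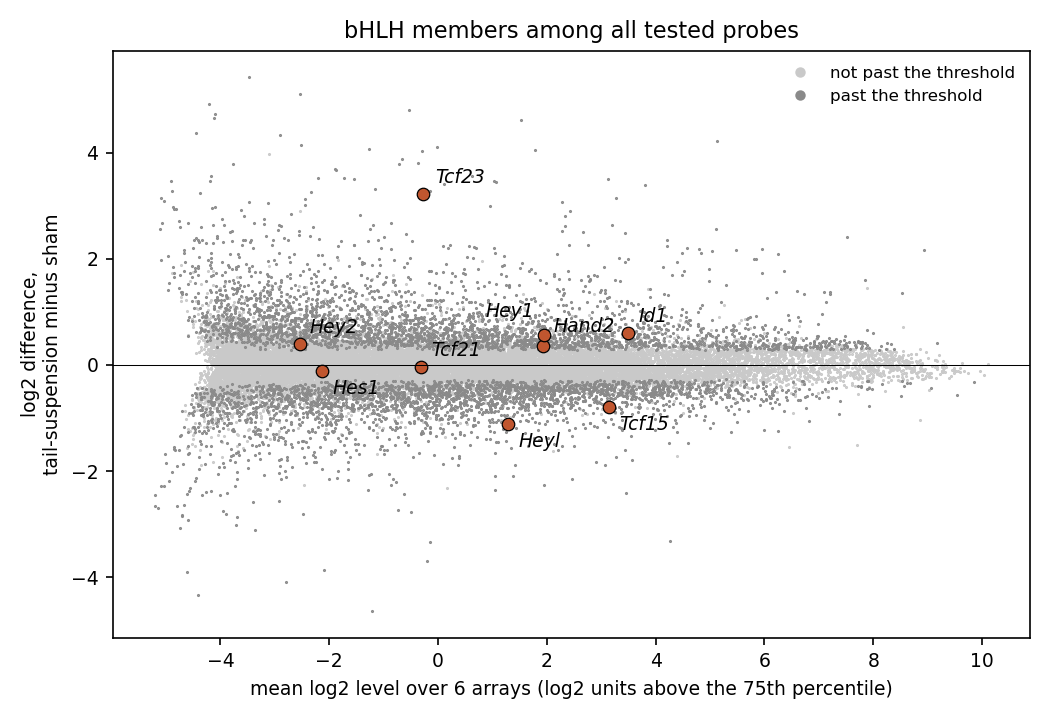
Difference between tail-suspension and sham on the log2 scale against the mean level over 6 arrays, for 28032 tested probes (grey; darker where past an adjusted p of 0.05) and 9 bHLH genes (orange). Tcf23 lies at 3.23 at a middling level, and the other 8 lie between -1.12 and 0.61.

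Genes with the pattern most like that of Tcf23 were sought by the root mean square difference of levels centred on the sham mean, over 6 arrays and 19509 genes with a probe well above background on all of them. A transcript listed as ENSMUST00000143649 was nearest, at 0.24, with a difference between groups of 3.26. Klk1b22 followed at 0.33, Fkbp5 at 0.35, and Klk1b5 and Apod at 0.37. Fkbp5 encodes a co-chaperone of steroid receptors, and its processed intensity was 446, 719 and 447 in sham and 4570, 4300 and 6900 in tail-suspension. Apod encodes a secreted lipid-binding protein, and its processed intensity went from 1410, 1600 and 1080 to 18300, 11400 and 21200. Klk1b22 and Klk1b5 belong to a family of near-identical kallikreins that a probe may share, so that the member measured is uncertain. All 5 were chosen for their likeness and carry no test here, and each varied more within the groups than Tcf23 did.

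**Figure D3:**
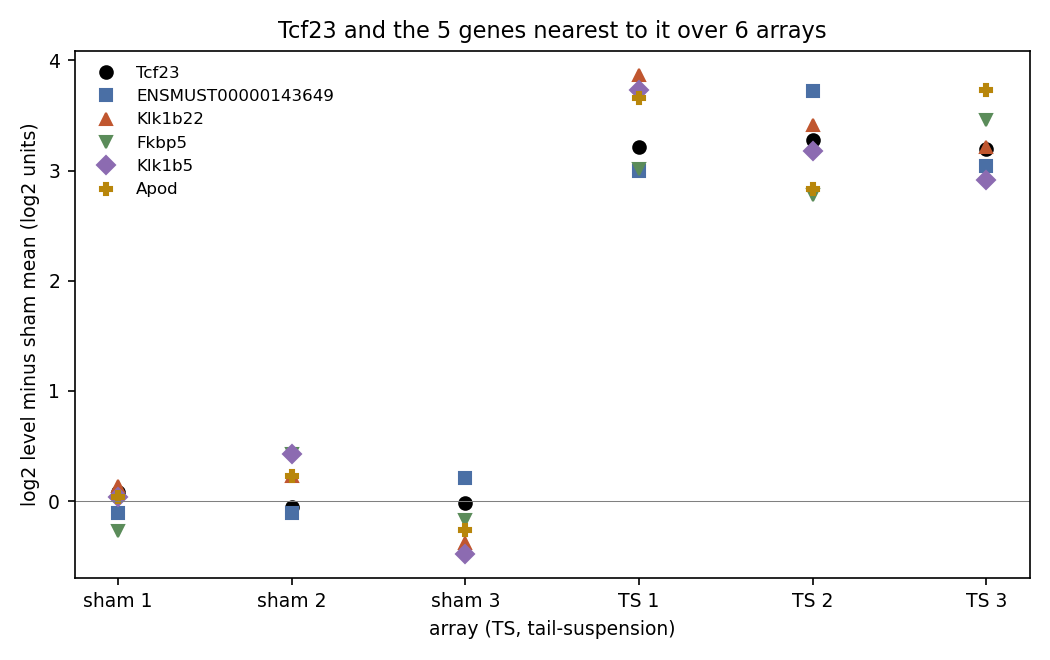
Level on each array minus the sham mean, in log2 units, for Tcf23 (black) and the 5 genes nearest to it. All 6 genes lie within 0.5 of zero in sham and near 3 or above in tail-suspension, and the Tcf23 points are the most even within each group.

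The genes that lie beside Tcf23 on the chromosome differed by at most 0.37. The 3 protein-coding genes on either side were taken from the RefSeq gene table, after the value of Tcf23 was known. Khk differed by 0.37 (limma adjusted p = 0.0632), Cgref1 by 0.31 (adjusted p = 0.228), Preb by 0.05 (adjusted p = 0.744) and Slc5a6 by 0.04 (adjusted p = 0.781), none past the threshold. Atraid rose by 0.33 (adjusted p = 0.0369), and Cad had no tested probe. Tcf23 was first described in uterus, ovary and testis, and of 6 genes taken as markers of reproductive organs 4 were tested. Ovgp1 rose by 0.73 (standard error 0.17, adjusted p = 0.0299), the other 3 were not past the threshold, and Amh and Ddx4 had no tested probe. With the methods' t-test, 0 of these 4 genes passed. Their summed level was 0.575 to 0.851 in sham and 0.865 to 0.932 in tail-suspension, and their part in the value of Tcf23 was not tested.

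Dimer partners of the tissue class factors were read next. Of 6 E protein and Id genes, all tested, Id3 rose and none fell, or 16.7% against 20.4% of all tested probes, and their median difference was 0.01 against 0. Id3, the companion of Id1, was at 3.58, 3.28 and 3.65 in sham and 3.93, 4.04 and 3.90 in tail-suspension. Its rise was 0.45 (standard error 0.12, limma adjusted p = 0.0437), and this call was lost on leaving out any one of the 6 arrays. Id2 differed by 0.32 (adjusted p = 0.0842) and Id4 by 0.15 (adjusted p = 0.705). Id2 was past the threshold with array weights and without tail-suspension replicate 2 (limma adjusted p = 0.0337 and 0.0381). The E protein genes Tcf3, Tcf4 and Tcf12 differed by -0.13, -0.14 and -0.32 (adjusted p = 0.303, 0.456 and 0.0556), with intervals of -0.34 to 0.07, -0.45 to 0.16 and -0.55 to -0.10. A second, dimmer probe of Tcf4 fell by 0.68 (adjusted p = 0.0138), so the probes of this gene disagree. Dimmer probes of Tcf12 and Tcf3 differed by 0.18 and 0.03 (limma adjusted p = 0.648 and 0.863). As the mean over its probes, Tcf12 differed by -0.07 (limma adjusted p = 0.748), and Tcf4 by -0.41 and past the threshold (adjusted p = 0.0416). Tcf12 was past the threshold with the intensity trend and with array weights (limma adjusted p = 0.0424 and 0.0411).

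Genes of the Notch pathway, which controls Hey and Hes expression, passed the threshold at a share near that of all probes. The list also holds targets of the pathway, such as Hes5 and Nrarp. Of 30 Notch pathway genes, all tested, 2 were past it and higher and 5 past it and lower, or 23.3% against 20.4% of all tested probes, with a median difference of -0.02 against 0. With only probes well above background on all 6 arrays, 7 of 28 passed, against 5454 of all 26248 such probes. By limma 0 of the 4 receptors passed the threshold, 1 (Notch4) did at an unadjusted p of 0.05, and 0 did by the methods' t-test after adjustment. Notch4 passed in 3 of 19 alternatives, namely normexp, the intensity trend and array weights (limma adjusted p = 0.0406, 0.0423 and 0.0226). Notch1 differed by 0.57 but its arrays were widely spread, from 2.22 to 3.79 in sham, with an interval of -0.46 to 1.59. Notch2, Notch3 and Notch4 differed by 0.13, 0.10 and 0.38, with intervals of -0.13 to 0.39, -0.14 to 0.33 and 0.08 to 0.69. The DNA-binding partner Rbpj differed by -0.06, with an interval of -0.24 to 0.13.

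Among the ligands, Dll1 fell. It was at -1.24, -1.35 and -1.27 in sham and -2.45, -1.87 and -2.43 in tail-suspension, a fall by 0.96 (standard error 0.17, limma adjusted p = 0.0142). This call was lost without sham replicate 2, without tail-suspension replicate 3, without the filter on dim probes and by the methods' t-test. Dll3, Dll4, Jag1 and Jag2 differed by -0.02, 0.02, 0.15 and -0.07 and were not past the threshold.

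Nrarp and Adam17 fell among the effectors and modifiers of the pathway. Nrarp, a Notch target that damps the pathway, was at -1.74, -1.53 and -1.46 in sham and -2.66, -2.64 and -2.83 in tail-suspension. It fell by 1.13 (standard error 0.11, limma adjusted p = 0.00284) and stayed past the threshold under each alternative, with adjusted p between 0.00152 and 0.049. Hes5, a repressor of the same class as Hes1, had no signal well above background in tail-suspension. It entered the fit only through its sham signal and was at least 1.61-fold lower (adjusted p = 0.0497), a p that this way of entry favours. Its call was lost in 10 of 18 alternatives. For this bound, each tail-suspension array was given the lowest signal still well above background, or the probe's own where that was higher, and the mean of these was set against the sham mean. Adam17, a protease that can shed Notch receptors, fell by 0.66 (standard error 0.12, adjusted p = 0.0156). That call was lost without sham replicate 2, without the filter on dim probes and by the methods' t-test. Its dimmer probe was not well above background in tail-suspension and gave a bound of at least 1.32-fold lower. Lfng, which adds sugar to Notch and alters which ligand it answers, rose by 0.80 (standard error 0.11, adjusted p = 0.00707). With normexp background correction its difference was 0.28 and the call was lost (adjusted p = 0.0855). The other 2 genes of this list past the threshold were Maml2, a co-activator, which rose by 0.42 (adjusted p = 0.0404), and Adam10, the main sheddase of Notch, which fell by 0.41 (adjusted p = 0.0365). The call for Maml2 was lost in 11 of 19 alternatives, among them the fits without each array but sham replicate 3, and with normexp its difference was 0.17. The call for Adam10 was lost in 10 of 19, among them the fits without any one of the 6 arrays.

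BMP genes, which act upstream of Id1 and Id3, passed the threshold at a share near that of all probes. Of 26 genes 19 were tested, 3 rose and 1 fell, or 21.1% against 20.4%, with a median difference of -0.01. The ligand Bmp4 rose by 0.48 (standard error 0.13, limma adjusted p = 0.0419), a call lost without any one of the 6 arrays. The receptor Bmpr1a fell by 0.63 (standard error 0.10, adjusted p = 0.0104) and kept its call without each array. Both inhibitory SMADs rose, Smad6 by 0.56 (standard error 0.12, adjusted p = 0.0246) and Smad7 by 0.51 (standard error 0.11, adjusted p = 0.0246). The call for Smad6 was lost in all but one of the fits without an array, the exception being the one without tail-suspension replicate 2. The call for Smad7 was lost without sham replicate 1, sham replicate 2 or tail-suspension replicate 3.

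**Figure D4:**
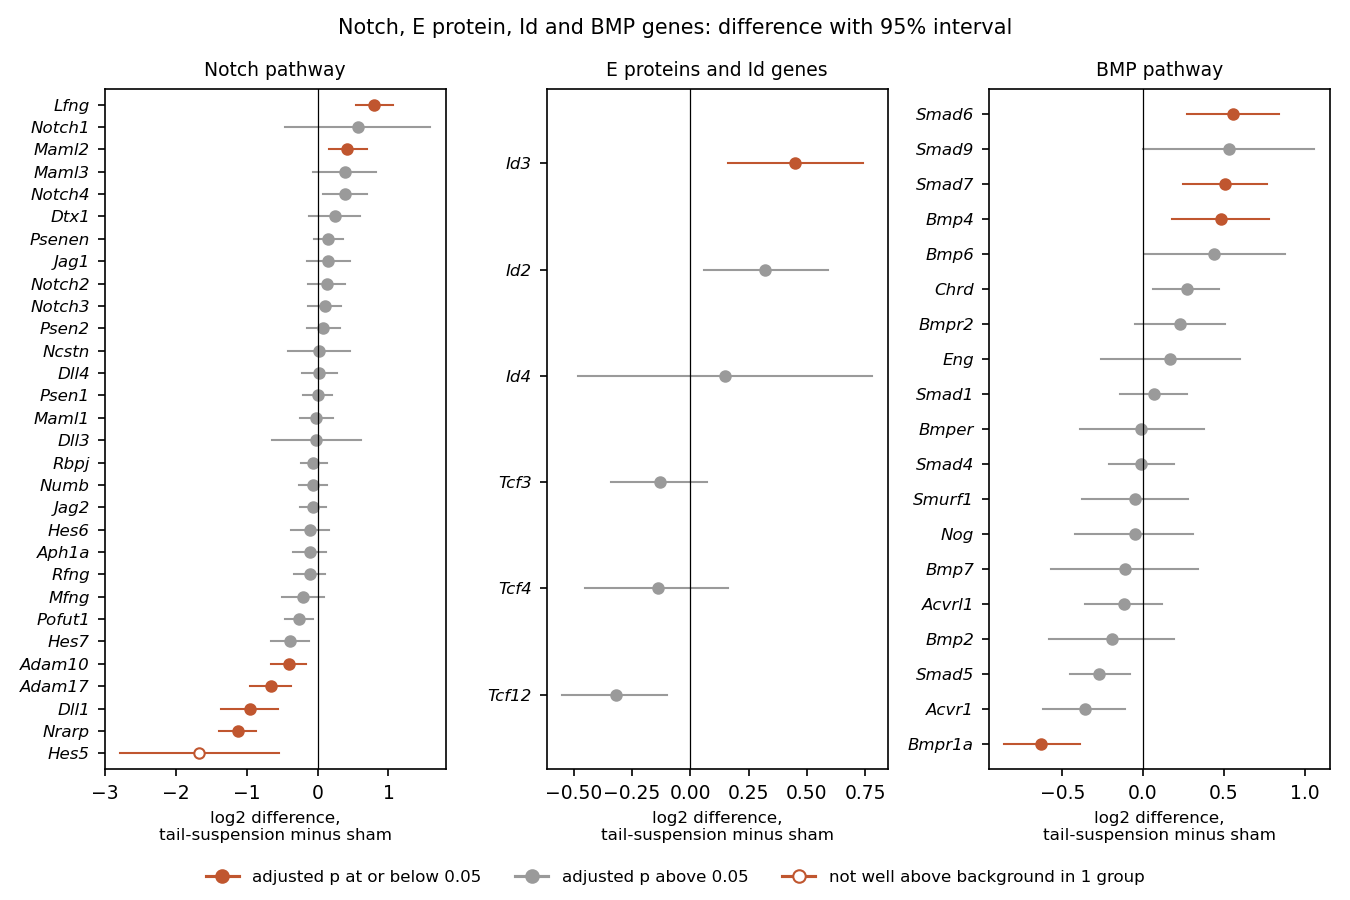
Difference between tail-suspension and sham on the log2 scale with its 95% interval for 30 Notch pathway genes, 6 E protein and Id genes and 19 BMP genes. Orange marks an adjusted p of 0.05 or below and an open point a gene not well above background in one group. Nrarp and Dll1 lie furthest below zero among genes measured in both groups.

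The wider bHLH family also passed the threshold at a share near that of all probes. Of 84 other bHLH genes on the array 47 were tested, 8 were past it and higher and 2 past it and lower, or 21.3% against 20.4% of all tested probes, with a median difference of 0.15 against 0. With only probes well above background on all 6 arrays, 9 of 42 passed, against 5454 of all 26248 such probes. In the tissue class, 29 of 43 genes had no tested probe.

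Of the tissue class, Scx and Atoh8 rose. Scx, the tendon and valve factor, was at 2.37, 2.22 and 2.56 in sham and 3.47, 3.31 and 3.99 in tail-suspended mouse hearts. It rose by 1.21 (standard error 0.19, limma adjusted p = 0.011), a call lost by the methods' t-test. Atoh8, a factor that BMP signals switch on in endothelium, was at -1.37, -1.53 and -1.35 in sham and -0.54, -0.13 and -0.27 in tail-suspension, a 2.15-fold rise (standard error 0.13 on the log2 scale, adjusted p = 0.00448). Ascl2, a factor of the achaete-scute family, had no signal well above background in sham. It entered the fit only through its tail-suspension signal, which favours a low p, and was at least 2.48-fold higher (adjusted p = 0.0179), a call lost in 8 of 18 alternatives.

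In the leucine zipper class 3 genes rose and 1 fell, of 19 tested, or 21.1% against 20.4% of all tested probes. Mxd1 was not past the threshold (0.43, limma adjusted p = 0.0803), but its dimmer probe rose by 0.95 (adjusted p = 0.0116). Myc, the growth regulator, was at -2.94, -2.81 and -2.91 in sham and -0.89, -1.73 and -1.23 in tail-suspension. It rose by 1.60 (standard error 0.20, limma adjusted p = 0.00588). Its relative Mycn, which drives muscle growth in the embryonic heart, fell. It was at -0.73, -0.68 and -0.30 in sham and -2.98, -2.10 and -3.14 in tail-suspension, a fall by 2.17 (standard error 0.28, adjusted p = 0.00616). The rise of Myc kept its call under each alternative, and the fall of Mycn lost it only with slide row as a block (adjusted p = 0.0558). Max, the shared partner of both, rose by 0.57 (standard error 0.13, adjusted p = 0.0267), and Mnt, a repressor that competes for Max, by 0.50 (standard error 0.10, adjusted p = 0.02). Max and Mnt each lost their call without sham replicate 1 or sham replicate 2, Max also without tail-suspension replicates 2 or 3, and Mnt without tail-suspension replicate 1.

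In the PAS class, the difference of Hif3a was wider than that of Tcf23. Hif3a, a hypoxia-inducible factor that lacks the full activation domain of its relatives, was at -2.36, -2.96 and -2.51 in sham and 1.21, 1.02 and 1.62 in tail-suspension. It rose by 3.89 (standard error 0.21, limma adjusted p = 0.00129), or 14.9-fold, and was past the threshold under each alternative. One other probe of Hif3a was not well above background in sham and was at least 1.57-fold higher. The remaining probe, which 2 of the 3 sham arrays measured above background, differed by 1.20 (adjusted p = 0.0521). Ahrr, the repressor of the aryl hydrocarbon receptor, rose by 1.14 (standard error 0.23, adjusted p = 0.0221), a call lost without 4 of the 6 arrays in turn, namely replicates 1 and 2 of sham and replicates 1 and 3 of tail-suspension. Hif1a fell by 0.36 (standard error 0.10, adjusted p = 0.0488), a call lost in 14 of 19 alternatives, among them the fit without any one of the 6 arrays, and its dimmer probe differed by -0.19 (adjusted p = 0.533). Sizes depended on the background correction. With normexp, Myc rose by 0.80, Mycn fell by 1.39, Hif3a rose by 2.85, Atoh8 rose by 0.73 and Nrarp fell by 0.70, each still past the threshold, and Hif3a rose by 2.59 as the mean over its probes. Of the genes named in the Notch, E protein and Id, BMP and other bHLH lists as past the threshold, Nrarp, Adam17, Myc and Hif3a kept their call with slide row as a block, whereas Dll1, Lfng, Maml2, Adam10, Hes5, Id3, Bmp4, Bmpr1a, Smad6, Smad7, Scx, Atoh8, Ascl2, Mycn, Max, Mnt, Ahrr and Hif1a lost it with the same sign.

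**Figure D5:**
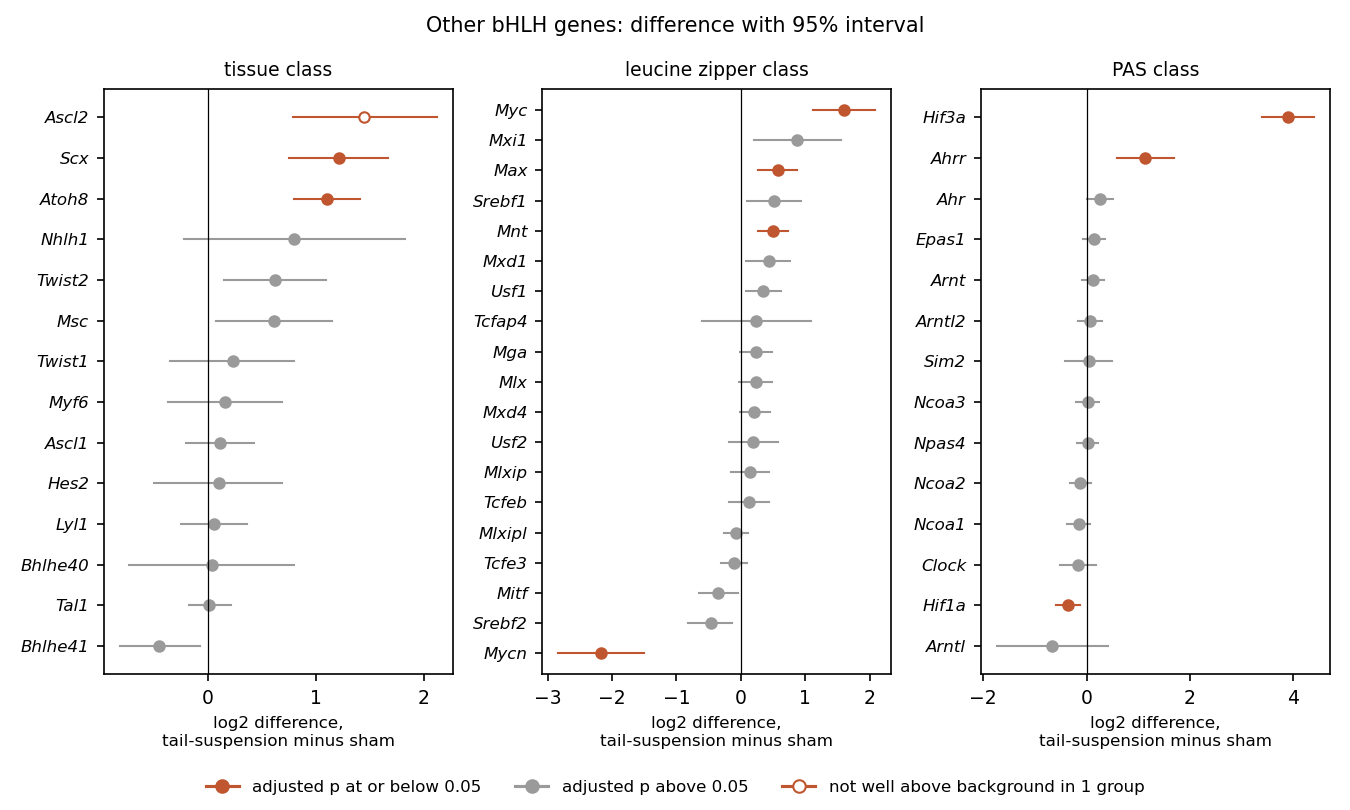
Difference between tail-suspension and sham on the log2 scale with its 95% interval for 47 other bHLH genes in 3 classes, each panel on its own scale. Orange marks an adjusted p of 0.05 or below and an open point a gene not well above background in one group. Hif3a at 3.89 and Mycn at -2.17 lie furthest from zero.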

How the data were processed

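Total RNA from cardiac muscle of 3 sham and 3 tail-suspended mice was hybridised to 1-colour Agilent arrays. The authors deposited a processed intensity per spot, which Agilent Feature Extraction 10.7.1.1 had corrected for background, and a table of log2 values for these arrays. Probe positions refer to mm9, as in the files. The paper names no normalization.

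In R 4.3.3, the log2 processed intensity was set relative to the 75th percentile of its array, without control spots or spots flagged as outliers, and averaged per probe. The filter kept probes that were well above background (on 0.5 or more of their spots) throughout at least 1 group. These 28032 probes were fitted in limma 3.58.1 (lmFit, eBayes) without covariates, and p-values were adjusted over all of them (Benjamini-Hochberg). The brightest probe stood for its gene. The fit was tested on simulated data. Precision is limited by the number of arrays, since 3 against 3 allow no exact two-sided permutation p under 0.1.

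The 10 genes and all gene lists were chosen with earlier results of these data known. Named are the 10 genes, all Notch receptors and ligands, Rbpj, all E protein and Id genes, up to 4 genes with the largest difference past the threshold from each other list, and the 5 genes nearest to Tcf23. Maml2, Adam10, Mxd1, the neighbours of Tcf23 and the markers were named after their values were seen. Alternatives were normexp (offset 50), quantile normalization, a percentile over detected probes, the authors' log2 values, no filter or a stricter one, outlier spots kept, an intensity trend, weights for arrays, an unpaired t-test as in the methods, a block for replicate number or for slide row, an adjusted p of 0.01, the mean over probes of a gene, and each array left out.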

Additional observations from a re-analysis of the deposited data

How the results depend on the processing

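Counts of genes past the threshold were compared over the settings, beside the count of probes, which was 5706. They were 5 for the 9 tested members, 7 for the Notch list, 1 for E protein and Id genes, 4 for BMP genes and 10 for other bHLH genes. In that order after the probes, the counts were 1831, 2, 2, 0, 1 and 5 without the filter on dim probes. That fit tested 55681 probes, 10 members, 26 BMP genes and 84 other bHLH genes, in place of 28032, 9, 19 and 47. With the methods' t-test the counts were 2780, 3, 2, 0, 2 and 5. With slide row as a block they were 497, 2, 2, 0, 0 and 2, where 1 tail-suspension array stands against 3 sham arrays in 1 row. At an adjusted p of 0.01 they were 1171, 2, 2, 0, 0 and 4. Array weights gave 3 E protein and Id genes, 7 BMP genes and 16 other bHLH genes. The intensity trend and the mean over probes each gave 2 E protein and Id genes. With each array left out, the counts lay between 1691 and 5512 probes, 2 and 4 members, 2 and 5 Notch genes, 0 and 1 E protein and Id genes, 1 and 3 BMP genes and 5 and 11 other bHLH genes, where fewer arrays were tested. The lowest count of probes was that without sham replicate 2. The cause of the other shifts was not tested.

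Same-numbered sham and tail-suspension arrays did not deviate together across probes (correlations of -0.02, -0.018 and 0.05). Whether these arrays share more than a number was not tested. With the replicate number as a block, 3117 probes and 0 E protein and Id genes were past the threshold.

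The difference of Tcf23 lay between 2.55 (normexp) and 3.27 over all settings, and was 2.81 in the authors' log2 values. Heyl lay between -1.21 and -0.97, Tcf15 between -0.95 and -0.54, Hey1 between 0.43 and 0.63, and Id1 between 0.52 and 0.74. Hey2 lay between 0.04 and 0.57. Tcf21, Hand2 and Hes1, whose groups overlapped, reached values of either sign or zero. A gene not well above background, such as Hand1, is limited to a bound.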

Other observations

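Marker genes of other cells that cardiac muscle can hold gave the following values. Of 7 atrial genes 4 were tested, and Nr2f1, a factor of atrial muscle, fell by 0.80 (standard error 0.11, limma adjusted p = 0.00669). Nppa, the natriuretic peptide gene, differed by 1.45 (adjusted p = 0.0886), and Myl4, an atrial myosin light chain gene, by -0.63 (adjusted p = 0.217). Nr2f2 differed by 0.13 (limma adjusted p = 0.59). The summed atrial level was 104 to 207 in sham and 181 to 639 in tail-suspension, nearly all of it from Nppa, while Myl7, Sln and Bmp10 had no tested probe. Of 5 tested macrophage genes, Cd163, a scavenger receptor of resident macrophages, was not well above background in sham and entered the fit only through tail-suspension, which favours a low p. It was at least 3.39-fold higher in tail-suspension (limma adjusted p = 0.024), and 0 of the 5 genes passed by the methods' t-test. The summed macrophage level was 21.8 to 28.5 in sham and 22.9 to 34.3 in tail-suspension, most of it from Csf1r. By limma 0 of the 2 tested epicardial and 0 of the 4 tested skeletal muscle genes passed the threshold, with 0 of either at an unadjusted p of 0.05 and 0 by the methods' t-test.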
